A study of Mus musculus with 14 samples.

Results

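The 30 genes described here encode enzymes and regulators of cholesterol and fatty acid synthesis. They were chosen by name, as rows of 2 deposited tables of read counts per gene, and each of the 30 symbols was found in both tables among 55415 rows. The sterol branch has 20 genes, of which 17 encode enzymes and 3 encode regulators or a transporter, and the fatty acid branch has 10, of which 9 encode enzymes and 1 a regulator. All 30 passed the filter on low counts in both tables. RNA was sequenced from TR.1, a mouse lung adenocarcinoma line driven by Trim24-RET, a fusion that couples the kinase part of the receptor RET to Trim24 protein. In the acute experiment TR.1 cells received 0.1% DMSO, the solvent, or 100 nM selpercatinib, a selective RET kinase inhibitor, and 1 library per arm was made at each of days 1, 2, 3 and 5. The resistance experiment had 2 libraries of parental cells kept in 0.1% DMSO, 2 of selpercatinib-resistant cells (500 nM) and 2 of cells resistant to pralsetinib, another selective RET inhibitor (labelled 200 and 400 nM). Resistant cultures began at 30 nM and the dose was raised over about 60 days, until cultures grew in 400 to 500 nM by the labels' protocol, which does not match the 200 nM label. All cells grew in RPMI-1640 with 5% serum, itself a source of cholesterol and fatty acids. All libraries come from this 1 line, and no label states that replicate libraries stem from cultures derived apart. P-values therefore reflect the spread among the libraries at hand, and this may be technical.

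Cells build cholesterol from acetyl-CoA through mevalonate, isoprenoids, squalene and lanosterol. Fatty acid synthesis draws on the same acetyl-CoA, which is carboxylated to malonyl-CoA, assembled into palmitate and then elongated or desaturated. The transcription factor SREBP-2, encoded by Srebf2, mainly drives the sterol genes, and SREBP-1, encoded by Srebf1, mainly the fatty acid genes. Both are held in the endoplasmic reticulum by Insig proteins when sterols are plentiful and are cut free in the Golgi when sterols run low. In lung tumour cells these pathways supply membranes, and alveolar type 2 cells also use fatty acid synthesis for surfactant.

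Total counts ran from 60.7 to 89.8 M per library, and levels are given as CPM (counts relative to the library total) after TMM scaling. A floor of 3 counts equals 0.0334 to 0.0494 CPM, far below the lowest value of any of the 30 genes. Of 9 markers of lung epithelium, summed levels lay between 5700 and 10833 CPM in the acute table, although the surfactant gene Sftpc, which defines alveolar type 2 cells, was at or near 0 in each of the 14 libraries. The 4 adipocyte markers, relevant because fat cells express these pathways strongly, summed to at most 0.861 CPM, with Plin1 between 0 and 0.037 CPM. Leukocyte markers summed to between 5.09 and 19.7 CPM, and endothelial markers to between 1.34 and 3.10 CPM. Of 5 leukocyte markers Adgre1 was at 0 in every library, while Csf1r, at 0.622 to 0.855 CPM in DMSO and 7.62 to 12.5 CPM in selpercatinib, was higher after acute selpercatinib by 3.75 on the log2 scale (SE 0.14) and Cd68 fell by 0.83 (SE 0.29). The part of these markers in the results was not tested. All 6 listed ERK output genes, which RET signalling drives, were lower after acute selpercatinib and in both resistant groups. The 2 tables were scaled separately, so levels are compared only within a table.

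Per exon length, the fatty acid branch held the highest levels. In DMSO at day 1 the desaturase gene Scd2 had 419 RPKM, followed by Acly at 144, Fads2 at 115 and Fasn at 109 RPKM, and the highest sterol gene was Cyp51 at 90.1 RPKM. Acss2, which makes acetyl-CoA from acetate, was lowest at 0.635 RPKM. Taken as sums over genes after TMM scaling, the sterol branch had 3244 CPM and the fatty acid branch 5779 CPM in that library. Without Scd2 the fatty acid sum was 3487 CPM. Scd1 and Scd2 are close copies that share short sequences (4.56 and 3.97% of their 50-base stretches occur in transcripts of other genes), and larger shares were found for Acaca at 30.4%, Fdps at 26.2%, Idi1 at 17.7%, Tm7sf2 at 9.87% and Fdft1 at 9.38%. Counts of these genes are uncertain to that extent. Exons of Fdft1 also overlap those of Ctsb, a lysosomal protease gene on the opposite strand, over 18.3% of their length, and exons of Hmgcs1 overlap Gm48342 over 12.1%. The strand setting of the counting is not given in the sources used here, so such reads may have been assigned to either gene. Exons of Fdps overlap Gm43738 over 26.7% of their length, and exons of Tm7sf2 overlap Vps51 over 12.1%. Both of these overlaps are on the same strand, so no strand setting would separate their reads.

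Promoter sequences from RefSeq (GRCm38.p6) were available for 23 of the 30 genes, 16 of the sterol and 7 of the fatty acid branch, as windows of 250 bases before to 50 after a start site. CCAAT, the letters bound by NF-Y, a factor that works beside SREBPs, was found on either strand in 16 of 16 sterol and 4 of 7 fatty acid genes, compared with 41.1% of all 27025 genes in the table. The GC box GGGCGG, bound by Sp1, was in 15 of 16 and 4 of 7, compared with 38.2% of genes. A sterol regulatory element written as TCACNCCAC was in 1 of the 23 genes (Hmgcs1), compared with 1.44% of all genes, and the shorter form TCACNCCA, which the longer one contains, in 3 (Hmgcs1, Msmo1 and Srebf2), compared with 4.97%. The E-box CACGTG was in 4 of 16 sterol and 0 of 7 fatty acid genes, compared with 8.09%. These matches are letters in a window and do not show binding. The 250 bases before the start of 3 genes are shown, 5′ to 3′, because Hmgcs1 holds the sterol element, Mvk has 5 CCAAT letters and was higher under drug in both experiments, and Fasn was lower under drug in both. Capitals mark CCAAT or its reverse complement ATTGG and, in Hmgcs1, TCACNCCA. The stretches are chr13:119690101-119690350 (plus strand), chr5:114444019-114444268 (plus strand) and chr11:120824548-120824797 (minus strand).
Hmgcs1: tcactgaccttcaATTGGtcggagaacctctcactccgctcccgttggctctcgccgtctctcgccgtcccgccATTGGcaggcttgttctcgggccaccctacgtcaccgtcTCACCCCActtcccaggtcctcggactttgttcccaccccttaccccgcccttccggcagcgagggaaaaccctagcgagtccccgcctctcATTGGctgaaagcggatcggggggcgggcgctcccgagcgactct
Mvk: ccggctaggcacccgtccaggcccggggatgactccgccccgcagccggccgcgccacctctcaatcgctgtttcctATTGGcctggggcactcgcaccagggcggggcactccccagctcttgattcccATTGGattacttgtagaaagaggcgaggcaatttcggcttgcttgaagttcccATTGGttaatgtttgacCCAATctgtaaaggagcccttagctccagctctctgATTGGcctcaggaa
Fasn: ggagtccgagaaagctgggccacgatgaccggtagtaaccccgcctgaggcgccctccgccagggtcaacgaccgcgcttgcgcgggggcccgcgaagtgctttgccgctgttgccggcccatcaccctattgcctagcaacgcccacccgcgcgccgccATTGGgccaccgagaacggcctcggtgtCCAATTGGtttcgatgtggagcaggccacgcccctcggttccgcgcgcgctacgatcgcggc

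The first comparison asks how the genes behaved over the days of culture within each arm. The labels name the day as a batch, and each arm had 1 library per day. Change with days in culture therefore cannot be told apart from a batch effect that both arms share. In DMSO, 26 of the 30 genes fell and 0 rose with day, with a share of called genes over all 13209 genes tested of 15.9% lower and 18.0% higher. By branch, 19 of 20 sterol genes fell, with a median slope of -0.28 per day on the log2 scale, and 7 of 10 fatty acid genes, with a median of -0.16, against 0.01 for all genes. At an unadjusted p under 0.05 the edgeR quasi-likelihood test had 29 genes lower and 0 higher, and limma on log2(CPM + 1) called 28 lower and 0 higher. The shares of all genes for these further counts are not given here, so they cannot be set against a background. In bulk RNA, fewer cells of a type and less RNA per cell cannot be told apart.

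Hmgcs1, whose enzyme makes the precursor of mevalonate, had 313, 304, 188 and 115 CPM at days 1, 2, 3 and 5 in DMSO. Days 3 and 5 lay below days 1 and 2, and the slope was -0.39 per day (SE 0.04, edgeR adjusted p = 0.0019). Idi1, the isopentenyl diphosphate isomerase gene, went from 81.2 to 70.6, 35.9 and 28.5 CPM over the same days, a slope of -0.40 (SE 0.06). Cyp51, the lanosterol demethylase gene, had 398, 368, 191 and 151 CPM. Its slope was -0.38 (SE 0.06), with most of the drop again between days 2 and 3. The kinase genes Mvk and Pmvk, the decarboxylase gene Mvd and the farnesyl diphosphate synthase gene Fdps had slopes from -0.37 to -0.23. The squalene and lanosterol genes Fdft1, Sqle and Lss had slopes from -0.28 to -0.24. The later sterol genes Tm7sf2, Msmo1, Nsdhl, Hsd17b7, Ebp, Sc5d and Dhcr7 had slopes from -0.36 to -0.16. All of these 17 enzyme genes passed the test.

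Srebf2 itself had one of the smallest slopes, -0.12 (SE 0.03), with 547, 565, 506 and 407 CPM. Stard4, which encodes a carrier of sterols between membranes, fell at -0.25 (SE 0.06). Insig1, whose protein retains SREBPs and whose gene is itself an SREBP target, had 203, 292, 178 and 115 CPM, so that day 2 was the highest, and it missed the threshold at -0.27 (SE 0.09, adjusted p = 0.053 in edgeR).

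In the fatty acid branch the steepest DMSO slopes belonged to Fads2, the delta-6 desaturase gene, at -0.42 (SE 0.07), and Elovl6, which lengthens palmitate, at -0.39 (SE 0.05). Fads2 had 378, 340, 155 and 129 CPM. Scd2, which inserts the first double bond, had 2292, 2497, 1290 and 1222 CPM, a slope of -0.27 (SE 0.07), with days 3 and 5 again well below days 1 and 2. Acly, the citrate lyase gene, fell at -0.21 (SE 0.04), Scd1 at -0.16 (SE 0.05), Srebf1 at -0.15 (SE 0.05) and the delta-5 desaturase gene Fads1 at -0.13 (SE 0.04). Fasn, the fatty acid synthase gene, at -0.12 (SE 0.05), Acaca, the acetyl-CoA carboxylase gene, at -0.11 (SE 0.04) and Acss2 at -0.02 (SE 0.06) did not pass.

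Selpercatinib cultures also declined with day. There 17 of the 30 genes fell and 0 rose, 13 of the sterol and 4 of the fatty acid branch, with 7.78% of all genes lower and 5.18% higher. Median slopes were -0.23 per day for the sterol and -0.15 for the fatty acid genes, while that of all genes lay near 0. Summed over the sterol genes, levels were 3244, 3335, 2179 and 1742 CPM in DMSO and 3495, 3049, 2375 and 1902 CPM in selpercatinib. The DMSO sum dropped mainly between days 2 and 3, and the selpercatinib sum dropped at each step. Between day 1 and day 5 all 20 sterol genes were lower in each arm, by a median of -0.93 in DMSO and -0.84 in selpercatinib on the log2 scale. Elovl6 had the steepest selpercatinib slope, -0.49 (SE 0.05), from 108 CPM at day 1 to 27.7 CPM at day 5. Dhcr7, the last enzyme gene of one route to cholesterol, differed in form, with 57.1, 51.5, 31.6 and 26.9 CPM in DMSO and 61.5, 59.0, 61.5 and 58.8 CPM in selpercatinib. Its slope was -0.29 (SE 0.05) in DMSO and -0.01 (SE 0.05) in selpercatinib.

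**Figure D1:**
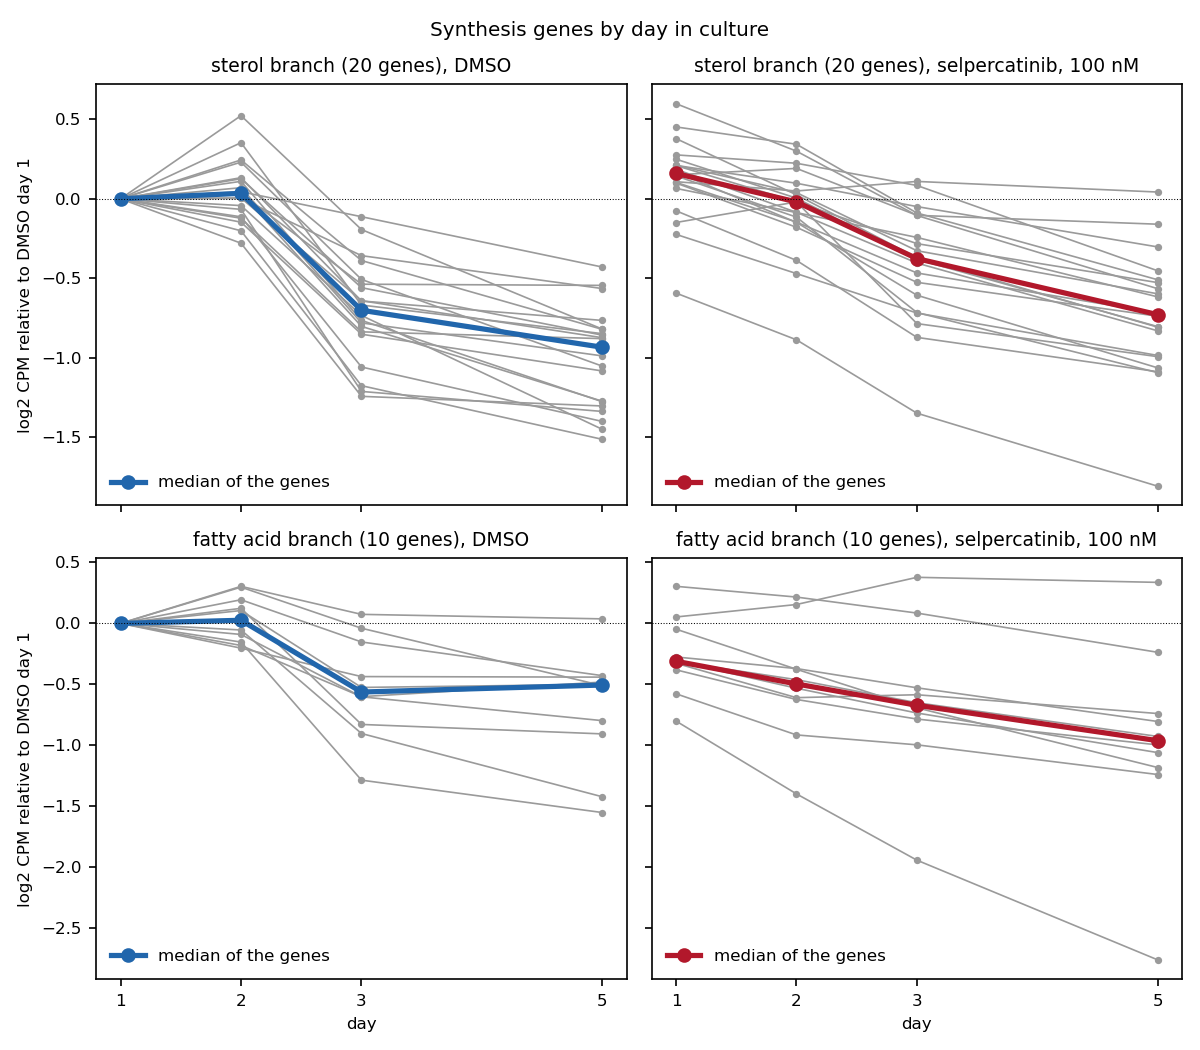
Log2 CPM of each gene relative to DMSO day 1 (y axis) by day in culture (x axis), for the sterol and fatty acid branches in DMSO and selpercatinib. Grey lines are single genes and the thick line is their median at each day. The sterol median reached -0.93 in DMSO at day 5, with the main drop between days 2 and 3.

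Whether the slopes differ between arms was tested as the slope of the log2 ratio per day. 0 of the 30 genes passed, against 2.06% of all genes, and 5 had an unadjusted p under 0.05, all with a positive slope. The share of all genes at that unadjusted level was not computed. Dhcr7 at 0.28 per day (SE 0.06, edgeR adjusted p = 0.076) and Fads2 at 0.27 (SE 0.07, adjusted p = 0.11) came nearest. These 2 genes were called with no filter on low counts, with DESeq2 and without day 3. Without day 5 they were called together with Hsd17b7.

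Levels of proliferation genes fell beside the sterol and fatty acid genes. All 10 of 10 listed proliferation genes fell with day in DMSO and 9 in selpercatinib, with summed levels of 2945, 2302, 1052 and 550 CPM in DMSO and 1480, 1002, 670 and 341 CPM in selpercatinib. Mki67, a marker of cycling cells, had a slope of -0.86 (SE 0.05) in DMSO. Their part in the decline of the synthesis genes was not tested. The number of calls depended on single days, both early and late. Without days 1, 2 and 5 the DMSO counts were 1, 5 and 18 genes and the selpercatinib counts 0, 4 and 3. The 26 DMSO and 17 selpercatinib slopes kept a negative sign in each of these fits.

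The acute comparison of selpercatinib with DMSO, with day as a block, asks what RET inhibition changes within 5 days. The branches had medians of opposite sign. In the fatty acid branch 7 of 10 genes fell and 1 rose, with a median log2 change of -0.31. In the sterol branch 5 of 20 rose and 2 fell, with a median of 0.18, while the median of all 13209 genes lay near 0. Over all genes tested 26.6% were higher and 26.9% lower in this contrast, so the sterol counts are near or under the background. Since levels fell over the days in both arms, the ranges of the arms overlap for most genes, and the comparison rests on the pairs of each day.

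Elovl6 changed most among the 30 genes. It had 188, 181, 100 and 70.0 CPM in DMSO and 108, 71.2, 48.8 and 27.7 CPM in selpercatinib, lower in 4 of 4 day pairs, and fell by 1.13 (SE 0.11, edgeR adjusted p = 0.00031). Fasn had 1195, 1054, 788 and 856 CPM in DMSO and 801, 634, 599 and 506 CPM in selpercatinib. It was lower at each day and fell by 0.62 (SE 0.09, adjusted p = 0.0021 in edgeR). Acaca fell by 0.30 (SE 0.07), Acly by 0.32 (SE 0.09) and Srebf1 by 0.27 (SE 0.09).

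Scd1 and Scd2 changed in opposite directions. They lie on chromosome 19 (mm10), Scd2 from 44293674 to 44306864 and Scd1 from 44394455 to 44407879. Scd1 had 424, 521, 413 and 298 CPM in DMSO and 410, 327, 262 and 187 CPM in selpercatinib. The arms were alike at day 1 and apart from day 2 on, and Scd1 fell by 0.51 (SE 0.12, edgeR adjusted p = 0.012). Scd2 had 2830, 2662, 2431 and 1944 CPM in selpercatinib, above its DMSO values at each day, and rose by 0.49 (SE 0.15, adjusted p = 0.032 in edgeR). Fads1, from 10182888 to 10196877 on the same chromosome, fell by 0.56 (SE 0.09), with 196, 224, 176 and 145 CPM in DMSO and 158, 135, 118 and 93.9 CPM in selpercatinib. Its neighbour Fads2, from 10062765 to 10101746, had 305, 275, 241 and 199 CPM in selpercatinib. That is below DMSO at days 1 and 2 and above it at days 3 and 5, and the mean difference of 0.16 (SE 0.19) did not pass. Acss2, with 6.46 to 7.97 CPM in DMSO and 6.70 to 8.39 CPM in selpercatinib, did not pass either.

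Of 17 sterol enzyme genes 5 rose and 0 fell, against 26.6% higher and 26.9% lower over all genes. Mvk, the mevalonate kinase gene, had 57.1, 54.5, 24.7 and 22.6 CPM in DMSO and 86.4, 70.3, 53.1 and 38.6 CPM in selpercatinib, higher at each day, and rose by 0.71 (SE 0.12, edgeR adjusted p = 0.0036). Hsd17b7, a sterol ketone reductase gene, rose by 0.75 (SE 0.12), with 98.6, 91.4, 67.7 and 50.6 CPM in selpercatinib and 72.1, 59.4, 30.5 and 29.2 CPM in DMSO. Dhcr7 rose by 0.60 (SE 0.19), Hmgcs1 by 0.32 (SE 0.10) and Sc5d, a sterol desaturase gene, by 0.28 (SE 0.08). The other 12 sterol enzyme genes had log2 differences from -0.17 (Lss) to 0.32 (Tm7sf2) and did not pass. For the 20 sterol genes the median day pair was 0.16, -0.12, 0.32 and 0.36 at days 1, 2, 3 and 5, so that day 2 went the other way.

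The sterol carrier gene Stard4 had 115, 136, 87.6 and 64.9 CPM in DMSO and 76.1, 62.0, 45.1 and 32.8 CPM in selpercatinib, lower at each day, and fell by 0.92 (SE 0.10, edgeR adjusted p = 0.00051). Insig1 fell by 0.36 (SE 0.10), and Srebf2 was at -0.10 (SE 0.08, adjusted p = 0.34 in edgeR). In edgeR's test with Benjamini-Hochberg adjustment the calls of Mvk, Hsd17b7, Stard4, Fasn, Elovl6 and Fads1 held without any single day. Over all 30 genes 2 rose without day 3 and 2 without day 5, 4 fell without day 2, and without the day block 0 rose and 3 fell. The shares of all genes called in these alternative fits are not given here. Proliferation genes were lower in selpercatinib in 10 of 10 cases and epithelial markers higher in 7 of 8 tested, with sums of 5700 to 7470 CPM in DMSO and 10067 to 10833 CPM in selpercatinib. The part of neither list in these results was tested.

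**Figure D2:**
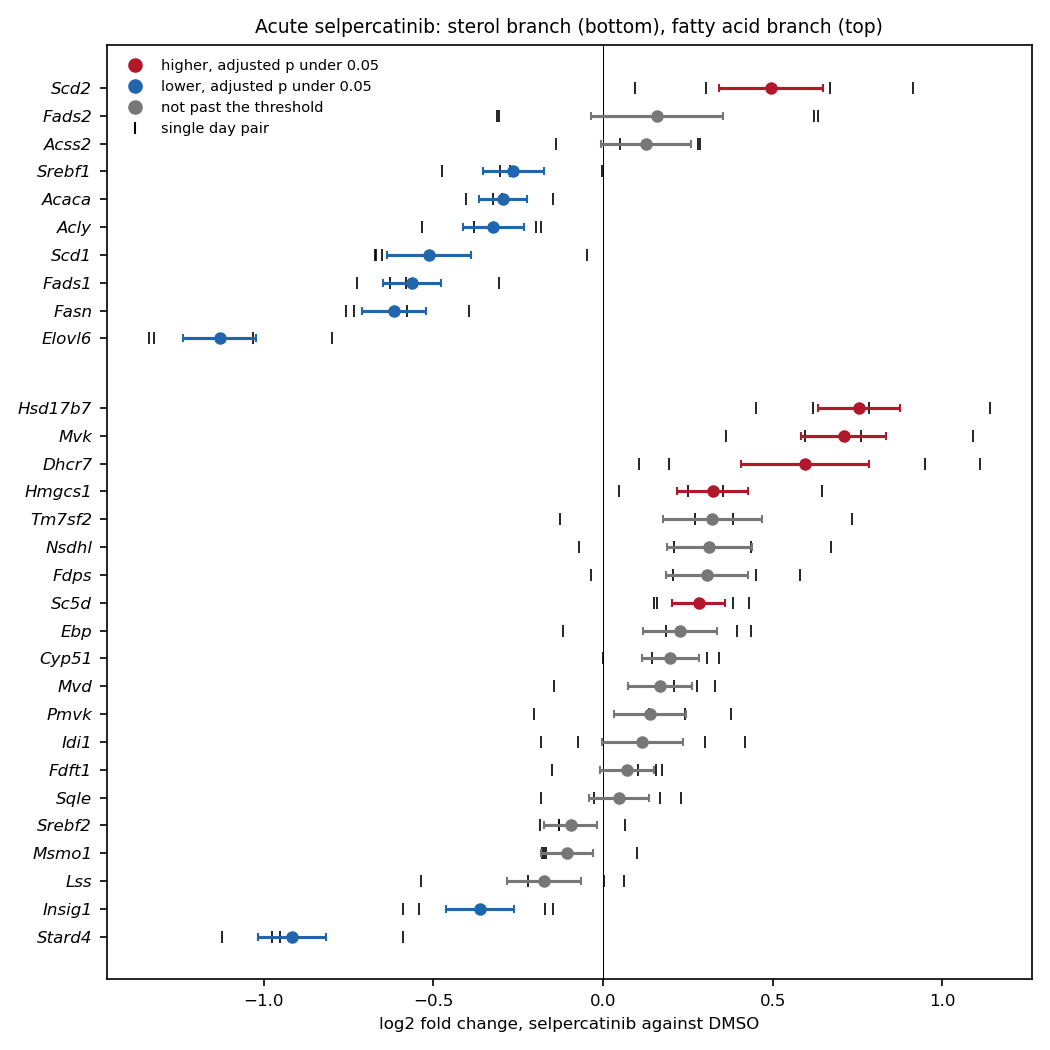
Log2 fold change of selpercatinib against DMSO (x axis) for each gene (y axis), with the sterol branch below and the fatty acid branch above. Dots with bars are the edgeR estimate and its standard error, and ticks are the 4 day pairs. Elovl6 at -1.13 and Stard4 at -0.92 lie farthest to the left, and Hsd17b7 at 0.75 and Mvk at 0.71 farthest to the right.

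**Figure D3:**
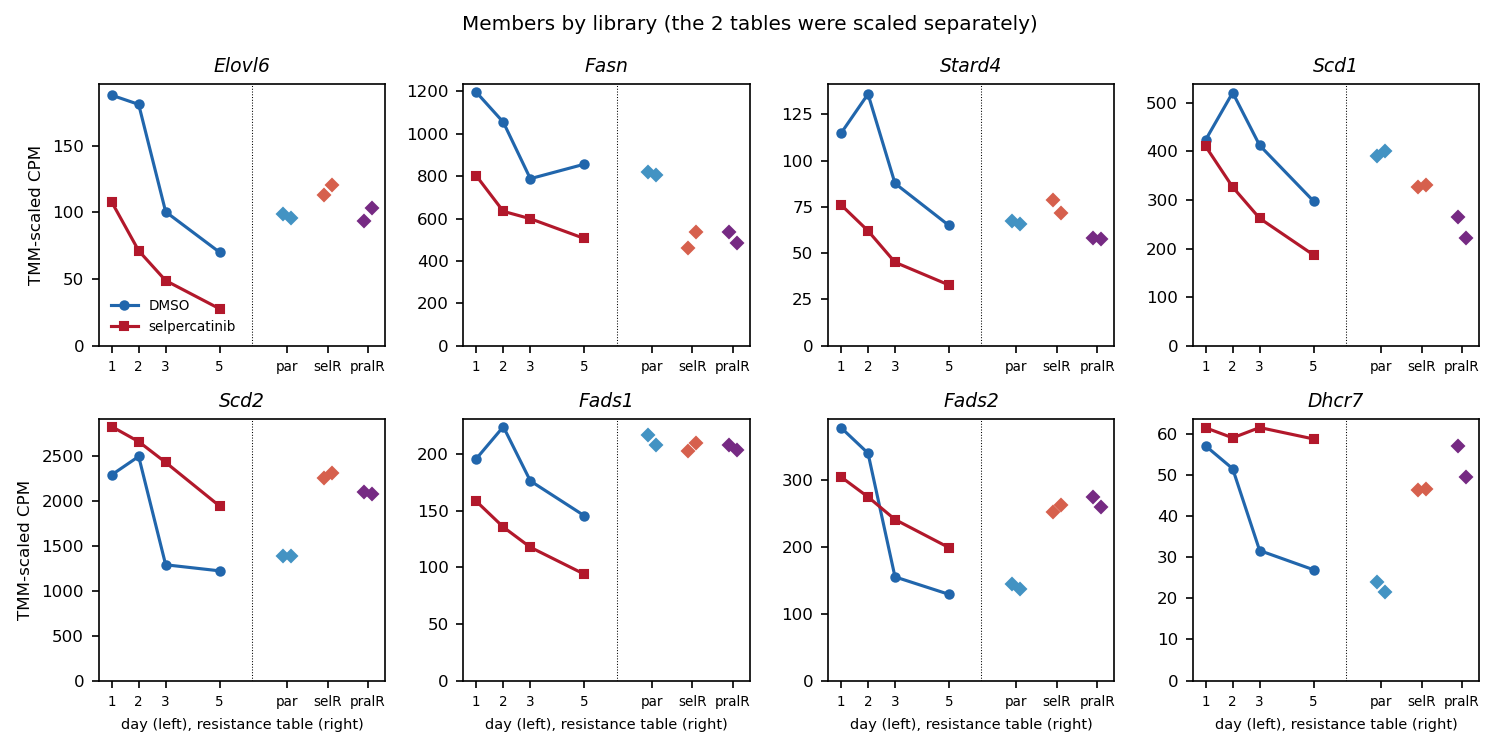
TMM-scaled CPM (y axis) of 8 genes by library: lines give DMSO and selpercatinib over days 1 to 5, and diamonds give the 2 libraries each of parental (par), selpercatinib-resistant (selR) and pralsetinib-resistant (pralR) cells, scaled apart from the time course. Scd2, Fads2 and Dhcr7 were higher in both resistant groups than in parental cells, while Fasn and Scd1 were lower.

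Of the genes that handle lipids beside these 30, other lists gave mixed counts after acute selpercatinib, to be read against 26.6% higher and 26.9% lower over all genes. Among 7 regulators of SREBP 1 rose and 2 fell, with Mbtps2, a protease that frees SREBPs, at -0.68 (SE 0.12). In 9 genes of isoprenoid side branches 1 rose and 3 fell, with Pdss1, a ubiquinone side chain synthase, at -0.96 (SE 0.16). Of 19 tested among 23 other fatty acid synthesis genes 6 rose and 5 fell, with Fads3 at 1.24 (SE 0.08) and the elongase gene Elovl7 at 0.98 (SE 0.07). In 9 glycerolipid and droplet genes 4 rose and 1 fell, with Pnpla2, a triglyceride lipase, at 0.82 (SE 0.08) and Dgat2, which makes triglyceride, at -0.93 (SE 0.12). Among 8 genes of LXR and sterol efflux 3 rose and 2 fell. Of 10 genes of sterol uptake and transport 2 rose and 3 fell, with Lipa, which frees cholesterol in lysosomes, at 1.13 (SE 0.08) and Soat1, which esterifies it, at -1.14 (SE 0.08). In fatty acid oxidation and PPAR genes 6 of 12 tested (15 listed) rose and 1 fell, with Cpt1a, which admits fatty acids to mitochondria, at 1.34 (SE 0.11) and Ppard at -1.91 (SE 0.09).

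The resistance comparisons ask what sets drug-adapted cultures apart from the parental line, and both use the same 2 parental libraries. In selpercatinib-resistant cells 11 of the 30 genes were higher and 10 lower, with 35.2 and 34.4% of all 14389 genes tested. In pralsetinib-resistant cells 7 were higher and 11 lower, with 35.8 and 34.6% of all genes. With selpercatinib both counts are near the shares of all genes, while with pralsetinib the count higher is under its share. Neither branch moved one way. Sterol genes were higher in 6 and lower in 7 cases with selpercatinib and 3 and 7 with pralsetinib, with medians of -0.04 and -0.14. For fatty acid genes the counts were 5 and 3, and 4 and 4, with medians of 0.11 and -0.01. The medians of all genes lay near 0.

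Dhcr7 had the largest rise. The parental libraries had 24.0 and 21.6 CPM, against 46.4 and 46.6 CPM in selpercatinib-resistant and 56.9 and 49.4 CPM in pralsetinib-resistant cells. The groups did not overlap, and the log2 changes were 1.03 (SE 0.09, edgeR adjusted p = 3.9e-05) and 1.22 (SE 0.09, adjusted p = 1.5e-05). Mvk, at 22.2 and 20.6 CPM in parental cells, had 35.7 and 37.3 CPM with selpercatinib and 41.4 and 37.2 CPM with pralsetinib, changes of 0.77 (SE 0.08) and 0.88 (SE 0.08). Hsd17b7 rose by 0.35 (SE 0.09) in each resistant group. Sc5d rose by 0.46 (SE 0.07) and Idi1 by 0.25 (SE 0.09) in selpercatinib-resistant cells. In pralsetinib-resistant cells Sc5d was at 0.17 (SE 0.07) and Idi1 at 0.08 (SE 0.09), neither past the threshold.

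Lower sterol genes in both groups were Pmvk, Fdft1, Lss, Msmo1, Insig1 and Srebf2. Pmvk, the phosphomevalonate kinase gene and the next enzyme after Mvk, had 53.6 and 53.8 CPM in parental, 34.8 and 34.6 CPM in selpercatinib-resistant and 33.4 and 28.5 CPM in pralsetinib-resistant cells, a fall of 0.63 (SE 0.09) and of 0.79 (SE 0.09). Thus consecutive steps of one path moved in opposite directions. Msmo1, a sterol methyl oxidase gene, fell by 0.48 (SE 0.07) and 0.44 (SE 0.07). Insig1 stood at 123 and 123 CPM in the parental line. It fell by 0.89 (SE 0.07) to 66.2 and 66.1 CPM with selpercatinib, and by 0.70 (SE 0.07) to 72.2 and 79.4 CPM with pralsetinib. Srebf2 fell by 0.24 (SE 0.06) and 0.36 (SE 0.06), Fdft1 by 0.35 (SE 0.11) and 0.39 (SE 0.11), and Lss by 0.24 (SE 0.06) and 0.16 (SE 0.06). Mvd fell by 0.38 (SE 0.10) with selpercatinib and was at -0.19 (SE 0.10) with pralsetinib, not past the threshold. Stard4 had 67.3 and 65.7 CPM in parental, 78.6 and 71.7 CPM in selpercatinib-resistant and 58.1 and 57.4 CPM in pralsetinib-resistant cells. Against parental cells Stard4 rose by 0.18 (SE 0.07) in the selpercatinib-resistant and fell by 0.20 (SE 0.07) in the pralsetinib-resistant group. Both calls were lost with no filter on low counts and without either parental library. The selpercatinib-resistant call was also lost without either selpercatinib-resistant library. The other 7 sterol genes, Hmgcs1, Fdps, Sqle, Cyp51, Tm7sf2, Nsdhl and Ebp, were called in neither group, with differences from -0.44 to 0.20.

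In the fatty acid branch Scd1 and Scd2 again went opposite ways. Scd2 had 1393 and 1385 CPM in parental, 2253 and 2316 CPM in selpercatinib-resistant and 2100 and 2080 CPM in pralsetinib-resistant cells, and rose by 0.72 (SE 0.05) and 0.59 (SE 0.05). Scd1 had 390 and 400 CPM in parental, 326 and 332 CPM in selpercatinib-resistant and 265 and 223 CPM in pralsetinib-resistant cells, and fell by 0.26 (SE 0.09) and 0.70 (SE 0.09). Fads2 had 145 and 136 CPM in parental cells, 252 and 263 CPM with selpercatinib and 275 and 259 CPM with pralsetinib. It rose by 0.88 (SE 0.06, edgeR adjusted p = 1.4e-05) and 0.93 (SE 0.06, adjusted p = 1e-05), whereas Fads1 was at -0.04 (SE 0.06) and -0.05 (SE 0.06) and did not pass.

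Fasn had 821 and 803 CPM in parental cells and fell by 0.71 (SE 0.09) to 459 and 536 CPM with selpercatinib, and by 0.67 (SE 0.09) to 536 and 484 CPM with pralsetinib. Srebf1 moved the other way, from 168 and 168 CPM to 231 and 245 CPM and to 238 and 235 CPM, a rise of 0.50 (SE 0.06) and 0.49 (SE 0.06). Acss2 rose by 0.76 (SE 0.11) and 0.95 (SE 0.11), from 7.10 and 6.63 CPM to 11.2 and 12.1 CPM and to 13.9 and 12.7 CPM. Acaca fell by 0.21 (SE 0.07) and 0.24 (SE 0.07). Elovl6 rose by 0.26 (SE 0.07) with selpercatinib and was at 0.02 (SE 0.07) with pralsetinib, while Acly was at -0.09 (SE 0.05) with selpercatinib and fell by 0.16 (SE 0.05) with pralsetinib.

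**Figure D4:**
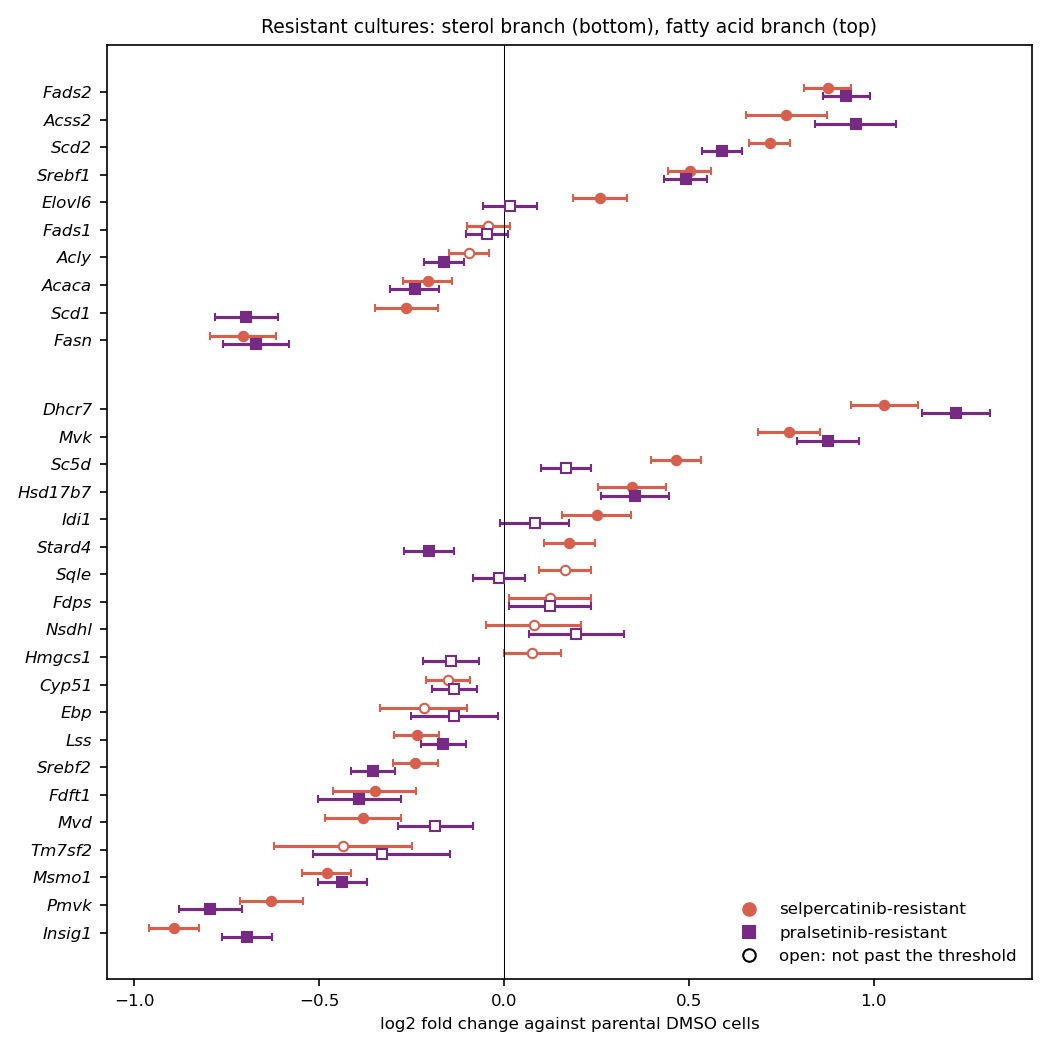
Log2 fold change against parental DMSO cells (x axis) for each gene (y axis), with the sterol branch below and the fatty acid branch above. Circles are selpercatinib-resistant and squares pralsetinib-resistant cells, bars are standard errors, and open symbols did not pass the threshold. Dhcr7 at 1.03 and 1.22 lies farthest to the right, and Insig1, Pmvk and Fasn lie to the left in both groups.

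Leaving out 1 of the 6 libraries changed these counts, and the shares of all genes called in those fits are not given here. With selpercatinib 7 genes were higher and 5 lower without parental library 1, 6 were lower without parental library 2, 4 were lower without resistant library 1, and 7 were higher without resistant library 2. With pralsetinib 6 genes were lower without either parental library. The calls of Mvk, Dhcr7, Scd2, Acss2, Fads2, Srebf1, Pmvk, Msmo1, Insig1 and Fasn held in both groups under each omission. Other values also differed between resistant and parental cells. Epithelial markers summed to 7922 and 8011 CPM in the parental line, 1217 and 1141 CPM in selpercatinib-resistant and 1244 and 604 CPM in pralsetinib-resistant cells, and were lower in 7 of 8 tested in each. Over all genes 34.4 and 34.6% were lower. The remaining marker tested, Nkx2-1, had 1.85 and 1.86 CPM in parental cells. It was called higher in selpercatinib-resistant cells, at 8.30 and 6.63 CPM, and was not called in pralsetinib-resistant cells, at 2.44 and 0.569 CPM. Fibroblast markers summed to 10.9 and 10.2 CPM, 1910 and 1660 CPM, and 1158 and 734 CPM, and were higher in 6 and 5 of 6 tested, while Lum was at most 0.178 CPM in every library of the table. Mitochondrially encoded transcripts took 1.67 and 1.73%, 2.47 and 2.44%, and 3.13 and 3.16% of counts, and proliferation genes were higher in 9 of 10 cases in each group. The part of these differences in the synthesis genes was not tested.

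Counts in other lipid lists are to be read against 35.2% higher and 34.4% lower over all genes with selpercatinib and 35.8 and 34.6% with pralsetinib. Abca1, which exports cholesterol and is a target of LXR, rose by 2.80 (SE 0.16) with selpercatinib and 1.97 (SE 0.15) with pralsetinib, and 4 and 5 of 8 LXR and efflux genes rose while 3 and 2 fell. Abcg1 of that list was lower, at 2.58 and 2.45 CPM in parental and 0.271 and 0.255 CPM in selpercatinib-resistant cells. In pralsetinib-resistant cells Abcg1 was at 0.127 and 0.139 CPM. Lipa rose by 2.30 (SE 0.13) and 1.93 (SE 0.13), and Soat1 fell by 1.17 (SE 0.07) and 1.12 (SE 0.07). The lipoprotein receptor gene Vldlr fell by 1.42 (SE 0.08) and 1.63 (SE 0.08). In that list of 10 uptake and transport genes 4 and 3 rose and 3 and 3 fell. Of 14 tested oxidation and PPAR genes 11 rose and 2 fell in each group, with the fatty acid carrier gene Fabp5 at 2.23 (SE 0.07) and 1.94 (SE 0.07). Plin2, which coats lipid droplets, fell by 1.38 (SE 0.07) and 1.24 (SE 0.07), in a list of 9 where 2 and 3 rose and 4 and 4 fell. Among 20 tested other fatty acid synthesis genes 7 and 7 rose and 6 and 7 fell, with Elovl7 at -1.79 (SE 0.10) and -2.03 (SE 0.10). Of 7 SREBP regulators 1 and 1 rose and 3 and 5 fell, with Mbtps2 at -0.57 (SE 0.10) and -0.73 (SE 0.10). In 9 isoprenoid genes 2 and 2 rose and 5 and 4 fell.

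Selpercatinib-resistant cells were also set against pralsetinib-resistant cells, whose doses differ, 500 nM against labelled doses of 200 and 400 nM. 3 of the 30 genes were higher, with 6.46% of all genes, and 0 were lower, with 4.13% of all genes. Stard4, with parental cells between both resistant groups, differed by 0.38 (SE 0.07, edgeR adjusted p = 0.018). Scd1 was higher by 0.43 (SE 0.09, adjusted p = 0.023 in edgeR) and Sc5d by 0.30 (SE 0.07, adjusted p = 0.035 in edgeR), with 103 and 99.6 CPM against 86.1 and 78.7 CPM. Unadjusted p-values under 0.05 in edgeR were found for 7 higher and 1 lower gene. For this count and those of the other fits that follow, the share of all genes is not given here. Limma on log2(CPM + 1) called 3 higher and 0 lower, and a fit of only these 4 libraries called 0. Without the pralsetinib library labelled 200 nM 8 were higher and 1 lower, without the one labelled 400 nM 4 were higher and 5 lower, and 0 were higher without any other single library.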

How the data were processed

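TR.1 cells were sequenced with a stranded mRNA kit, per the labels' protocols. Per the submitters' processing notes FastQC, STAR, edgeR and mm10 were used, with no versions given. Which counter, annotation or strand setting was used is not given in the sources used here. The deposited tables hold whole-number counts per gene, although their names say CPM. 24 rows with 5-digit names hold between 0.163 and 0.215% of counts and stayed in.

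Genes reaching 1 CPM in 4 or more acute libraries, or in 2 or more resistance libraries, were tested with edgeR 4.0.16 (R 4.3.3), a quasi-likelihood test with TMM scaling, two-sided, Benjamini-Hochberg adjusted over all genes, threshold 0.05. The acute fit had day as a block, since the labels name the day as a batch; deviations of same-day libraries correlated at 0.524 to 0.681 over 10540 genes, and those of different days at up to 0.620. Slopes per arm came from a fit with an intercept and a slope for each arm, and the resistance comparisons from 1 fit to 6 libraries. Standard errors are approximate, from the log2 change over the square root of F. RPKM used GENCODE M21 exon lengths. Limma 3.58.1, DESeq2 1.42.0, other scaling, no filter and omitted libraries were alternatives. Replicate pairs of the resistance table differed beyond sampling noise (chi-square per degree of freedom 7.02, 13.0 and 44.8). The fits were also run on simulated counts with known changes and the same spread for every gene. The share recovered is not given here, so that run says nothing about changes of the size reported. Figures used Python 3.11.15 and matplotlib 3.10.9.

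Genes named beside the 30 were up to 3 per list and comparison with the lowest p among those called, with a mean CPM of at least 5 and either 1 direction over the day pairs or groups that do not overlap. Abcg1, under that CPM, was named in addition. 1 gene of the list of SREBP regulators is not reported here and was left out of that list's counts. The 30 genes, lists and tests were chosen with earlier results of these data known.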

Additional observations from a re-analysis of the deposited data

Results flagged for a closer look

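The difference of each resistant group from the same parental libraries was itself tested as selpercatinib-resistant against pralsetinib-resistant, and 3 of the 30 genes were higher and 0 lower, with 6.46% higher and 4.13% lower over all genes. Scd1 was higher in selpercatinib-resistant cells by 0.43 on the log2 scale, Stard4 by 0.38 and Sc5d by 0.30. None of the 3 was called in a fit of only these 2 groups. In 60 outlier tests of the 30 genes over the 4 days of each acute arm no library was flagged. The days are not replicates and levels fell with day, so the usual rate of about 1 in 20 does not apply. These tests therefore cannot decide whether a library stands apart.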

How the results depend on the processing

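In the acute comparison without the day block (no replicate block) 0 genes were called higher and 3 lower, against 6 and 9. Leaving out a day gave 2 to 7 higher and 4 to 8 lower. For the slope of the ratio, 0 higher became 2 with no filter on low counts and 2 with DESeq2, and 0 to 3 with a day left out. With a day left out, DMSO slopes gave 1 to 29 genes lower and selpercatinib slopes 0 to 24. For selpercatinib-resistant cells the counts with 1 library left out were 7 to 12 higher and 4 to 13 lower, and the sterol median was -0.0746 to -0.0331. For pralsetinib-resistant cells 6 to 9 were higher and 6 to 16 lower. Between the resistant groups the count higher was 0 to 8 and the count lower 0 to 5, the sterol median was -0.0784 to 0.111 and the fatty acid median -0.0245 to 0.0752, and a fit of only the 2 groups called 0. The cause was not tested for any of these, and the shares of all genes called in these fits are not given here. With the replicate numbers as a block in the 4 parental and selpercatinib-resistant libraries 12 were higher and 13 lower. Deviations of same-numbered libraries correlated at r = -0.11. With 2 libraries per group, crossed numbers must give the same value with the other sign, so this cannot decide whether the numbers pair the libraries. Crossed numbers, added after seeing the data, gave the same 12 and 13. Over single genes 1975 of 2280 alternatives kept the call or its absence, 207 lost the call, 98 gained it and 0 reversed a call. Direction was not compared where neither fit called the gene. Scaling by DESeq2 size factors changed no count by over 1.5 times. With 2 to 4 libraries a group, small changes cannot be told from the spread.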
